A study of Homo sapiens with 9 samples.

Results

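Of the genes of the BCL2 family, 10 were taken by symbol from a table of 20812 gene rows: MCL1, BCL2, BCL2L1, BCL2L11, BAX, BAK1, BID, BAD, BBC3 and PMAIP1. Each symbol matched 1 row, so that each gene was read at 1 amplicon. BCL2 family proteins decide whether the outer membrane of the mitochondrion stays closed during apoptosis. MCL1, BCL2 and BCL2L1 (which encodes BCL-xL) are survival members that hold the pore-forming members BAX and BAK1 in check. The BH3-only members BCL2L11 (BIM), BID, BAD, BBC3 (PUMA) and PMAIP1 (NOXA) bind the survival members or trigger the pore-formers directly. MCL1 has a short-lived messenger RNA and protein, and BBC3, PMAIP1 and BAX are targets of p53, which is mutant in SKBR3.

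SKBR3 is an established human breast cancer line with an amplified ERBB2 gene. Of its 9 libraries, 3 came from cells given PVRL4 siRNA #2 (siRNA 2 from here on), 3 from cells given PVRL4 siRNA #1 (siRNA 1) and 3 from cells given a non-targeting control RNA, all transfected at 10 nM with Lipofectamine RNAiMAX and treated for 48 h. PVRL4 encodes the adhesion molecule nectin-4, and the study as titled concerns its control by FOS family proteins. Control and PVRL4 siRNAs came from different suppliers. Whether replicates came from separate cultures is not stated, and the p-values therefore reflect the spread among these libraries, part or all of which may be technical.

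Values are RPM, the reads of a gene scaled to a common library total. A level read at 1 amplicon also depends on how well that amplicon is copied, so levels of different genes are not compared, and in these bulk samples fewer cells with a transcript and less of it per cell cannot be told apart. The libraries held 10017130 to 10707777 reads, so that 3 reads, taken as the floor, lay at 0.280 to 0.299 RPM. Reads carry no molecular identifiers, and this floor covers counting error only. PVRL4 was at 3.39, 2.91 and 2.58 RPM in the 3 siRNA 2 libraries and at 5.99, 4.36 and 4.67 RPM in the siRNA 1 libraries, against 9.93, 7.86 and 11.6 RPM in the control libraries. Its log2 change passed the threshold with siRNA 2 (-1.44, limma adjusted p = 0.00224) and not with siRNA 1 (-0.84, adjusted p = 0.0601), where it passed with the replicate block described next (0.0132). PVRL4 averaged 30.2% of the control mean with siRNA 2 and 51.0% with siRNA 1. Between siRNA 2 and siRNA 1 its change was -0.60, without overlap of the libraries (limma adjusted p = 0.126). The adjusted p with the block was 0.0383 by limma and 0.0543 by edgeR. Of 6 markers of SKBR3 and luminal cells, ERBB2, GRB7, KRT8, KRT18 and EPCAM were at 185 RPM or more in every library, while CDH1 had at most 1 read. Their summed level was lower with siRNA 2, at 3578 to 4005 RPM, than with siRNA 1, at 4466 to 4990 RPM, and in control, at 4339 to 4976 RPM. KRT8 was at 1343 to 1619 RPM with siRNA 2, 1869 to 2235 RPM with siRNA 1 and 1788 to 2302 RPM in control. Among the markers it alone had siRNA 2 libraries apart from both other groups. Those of ERBB2, GRB7 and KRT18 overlapped both, and EPCAM was at 463 to 547, 471 to 504 and 463 to 489 RPM in the same order. The summed level of 6 leukocyte markers was 0.0950 to 1.55 RPM with siRNA 2, 0.580 to 0.772 RPM with siRNA 1 and 0.296 to 0.381 RPM in control, with PTPRC at 0 throughout. That of 6 stromal and endothelial markers was 5.25 to 5.59, 4.44 to 7.85 and 4.77 to 5.52 RPM in the same order, most of it COL1A1, with PECAM1 at no more than 1 read.

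Changes are differences of log2(RPM + 1) from limma, fitted over the 11158 genes that averaged 1 RPM or more and adjusted over all of them by the Benjamini-Hochberg method, with a threshold of 0.05. The replicate numbers of the sample titles paired the libraries across groups, and a fit with that number as a block is quoted where it changes a call. Counts of pairs that differ in the same direction are description only, since their share over all tested genes was not computed. Both comparisons with control use the same 3 control libraries. Of the 10 genes, 8 passed the filter, and BCL2 and PMAIP1 did not.

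Of the 8 tested members limma called 1, MCL1, between the 2 PVRL4 siRNAs, and 0 between either of them and control. Over all tested genes, too, more were called between the siRNAs (340) than against control with siRNA 1 (95) or siRNA 2 (76). MCL1 was lower with siRNA 2 than with siRNA 1, and its level in control lay in between. BCL2L11 showed the same order of levels and stood just short of the threshold. BCL2L1 was lower with both PVRL4 siRNAs than in control, a difference that passed only with siRNA 2 and only with the replicate block. The pore-former genes BAX and BAK1 and the BH3-only genes BID, BAD and BBC3 passed in no comparison under limma.

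**Figure D1:**
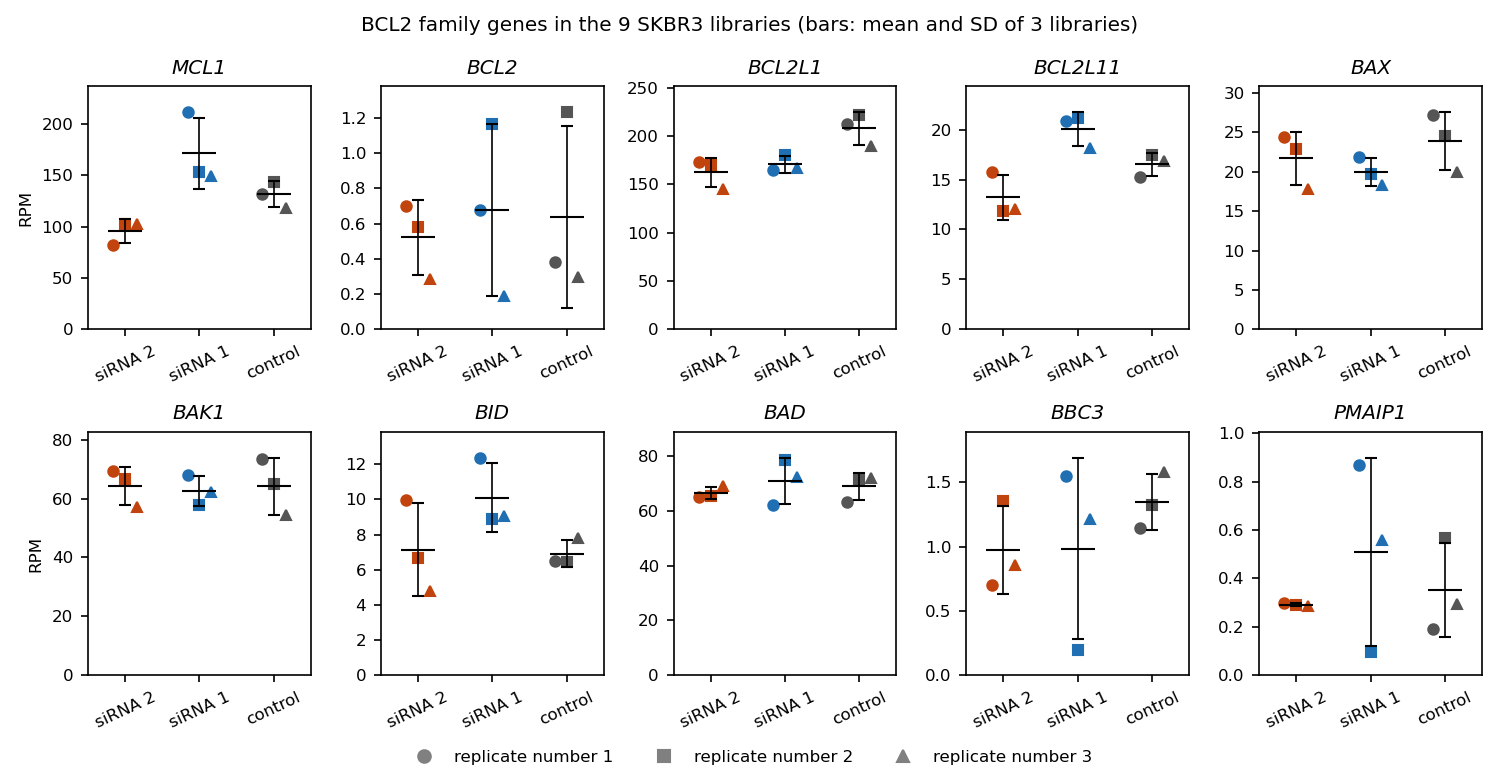
RPM of each of the 10 genes (y axes, from 0, with a scale of their own) in cells given siRNA 2, siRNA 1 or control RNA (x axes). Points are libraries, with the replicate number as the shape, and bars are the mean and SD of 3 libraries. For MCL1 the siRNA 2 libraries (82.7 to 103 RPM), the control libraries (119 to 144 RPM) and the siRNA 1 libraries (149 to 212 RPM) form 3 ranges that do not overlap.

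MCL1, a survival member that binds BIM, BAK1 and NOXA, was read at 82.7, 102 and 103 RPM in replicates 1, 2 and 3 of siRNA 2. With siRNA 1 it was at 212, 154 and 149 RPM, and in control at 132, 144 and 119 RPM. Each of the 3 groups was separate from the other two, with siRNA 1 replicate 1 the highest of the 9 libraries and siRNA 2 replicate 1 the lowest. These levels rest on 828 to 1081 reads per library with siRNA 2, 1586 to 2193 with siRNA 1 and 1203 to 1520 in control. The means were 96.0 ± 11.6 RPM with siRNA 2, 171.5 ± 35 RPM with siRNA 1 and 132 ± 12.7 RPM in control (SD, n = 3 each).

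With siRNA 2 MCL1 fell relative to siRNA 1, with a log2 change of -0.82 (SE 0.14, 95% interval -1.12 to -0.52, limma adjusted p = 0.00556), to 56.0% of the siRNA 1 mean. The direction was the same in 3 of 3 pairs of libraries that share a number, with differences of -1.35, -0.58 and -0.53 for numbers 1, 2 and 3. The call held in each of the 20 alternative analyses, with changes between -0.91 and -0.66 and adjusted p between 3.52e-05 and 0.0346. Against control the change was -0.45 with siRNA 2 (interval -0.75 to -0.15, limma adjusted p = 0.225; 0.0602 with the replicate block) and 0.36 with siRNA 1 (interval 0.065 to 0.67, limma adjusted p = 0.556; 0.226 with the block). Neither passed the threshold, although the groups did not overlap. Without siRNA 1 replicate 1 the change with siRNA 1 was 0.20 (limma adjusted p = 1.00). The sum of the luminal markers, among which KRT8 alone had no overlap, was lower with siRNA 2 as well. PVRL4, BCL2L11 and, against control, BCL2L1 were lower too. The part of the marker sum and of these genes in the MCL1 values was not tested.

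The siRNA 1 libraries also held interferon-induced transcripts, whose levels differed widely within that group. The sum of 10 interferon-induced genes was 43.9, 54.9 and 113 RPM in replicates 1, 2 and 3 of siRNA 2, 4886, 634 and 2051 RPM in those of siRNA 1, and 34.2, 45.1 and 39.0 RPM in control. The library with the highest interferon sum, siRNA 1 replicate 1, was also that with the most MCL1, while replicates 2 and 3 of siRNA 1 had nearly equal MCL1 levels at 634 and 2051 RPM of the interferon sum. Without siRNA 1 replicate 1 the difference of MCL1 between the siRNAs was -0.66 (limma adjusted p = 0.0200). The siRNA 2 libraries had less MCL1 than control at interferon sums near or above those of control. The part of the interferon-induced genes in the MCL1 values was not tested.

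By their pattern over the 9 libraries, the genes most like MCL1 among the 11158 tested were RNF114, ZFYVE26, BLOC1S4, FUOM and AFF1. Likeness was the root mean square difference of log2(RPM + 1) after each gene was centred on its own mean, which was 0.121 to 0.156 for these 5 and had a median of 0.404 over all other tested genes. The nearest, RNF114, an E3 ubiquitin ligase gene, averaged 203 RPM with siRNA 2, 322 RPM with siRNA 1 and 238 RPM in control. Of the other family members, BCL2L11 was the most like MCL1, in place 286 of 11157, at 0.252. BID came in place 3954, at 0.377, and BBC3, with at most 16 reads per library, last of the members in place 8324, at 0.457. These values lie near the median, where the measure does not tell an unlike pattern from a flat one. FUOM, among the 5 nearest genes, averaged only 0.904 to 1.72 RPM per group.

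BCL2L1, whose main product BCL-xL is a survival protein of the outer mitochondrial membrane, was at 173, 170 and 145 RPM in replicates 1, 2 and 3 of siRNA 2. With siRNA 1 it was at 165, 181 and 167 RPM, and in control at 213, 222 and 189 RPM. All 6 PVRL4 siRNA libraries lay below all 3 control libraries, while the libraries of the 2 siRNAs overlapped. The amplicon position was not given in the sources used here, so the long and short splice forms of BCL2L1, and likewise those of MCL1, cannot be told apart.

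The change of BCL2L1 against control was -0.35 with siRNA 2 (interval -0.57 to -0.13, limma adjusted p = 0.182). It passed with the replicate block (adjusted p = 0.0206 by limma and 0.0442 by edgeR), and the differences in the 3 pairs were -0.30, -0.39 and -0.38. With siRNA 1 the change was -0.28 (interval -0.50 to -0.060, limma adjusted p = 0.501; 0.107 with the block), lower in 3 of 3 pairs at -0.37, -0.29 and -0.18. Between the siRNAs it was -0.07 (interval -0.29 to 0.15, limma adjusted p = 0.799). The direction of this last value turned to 0.0038 without siRNA 2 replicate 3.

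BCL2, the founding survival member, was close to the floor in these cells. It had 7, 6 and 3 reads in replicates 1, 2 and 3 of siRNA 2, 7, 12 and 2 reads in those of siRNA 1, and 4, 13 and 3 reads in control, or 0.187 to 1.23 RPM. The groups overlapped fully, and a difference between them was not detectable at this depth.

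BCL2L11 encodes BIM, a BH3-only protein that binds every survival member. It was at 15.8, 11.8 and 12.02 RPM in replicates 1, 2 and 3 of siRNA 2. With siRNA 1 it was at 20.9, 21.2 and 18.1 RPM, and in control at 15.3, 17.4 and 16.9 RPM. The siRNA 1 libraries lay above all others, while siRNA 2 replicate 1 fell inside the control range and the other siRNA 2 libraries below it.

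Between siRNA 2 and siRNA 1 the change of BCL2L11 was -0.58 (interval -0.89 to -0.26, SE 0.15), just short of the threshold (limma adjusted p = 0.0507; edgeR 0.0512) and lower in 3 of 3 pairs. It passed with the replicate block (limma adjusted p = 0.0120, edgeR 0.0135), by DESeq2 (0.0287), with TMM scaling (0.0493), at a pseudocount of 0.1 (0.0479), with a filter at 5 RPM (0.0465) and without siRNA 2 replicate 1 (0.0361). It did not pass with no filter (0.103), without a trend (0.0619), with median-of-ratios scaling (0.0528), at a pseudocount of 5 (0.0576) or with any 1 of the other 8 libraries left out (up to 0.170). Against control the change was -0.31 with siRNA 2 (interval -0.63 to 0.0049, limma adjusted p = 0.541) and 0.26 with siRNA 1 (interval -0.052 to 0.58, adjusted p = 0.969).

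The promoters of BCL2L11 and BCL2L1, genes of opposite role, are shown, while that of MCL1 had no entry and could not be. Mean levels of BCL2L11 and BCL2L1 stood in different orders across the groups. Neither gene passed the threshold in the limma fit from which the changes are taken. A link between these sequences and the levels was not tested. The sequences come from RefSeq (build GRCh38.p14), 220 bases each, from 250 to 31 bases before the start of the gene, 5′ to 3′ on the strand of the gene. That of BCL2L11 is chr2:111120664-111120883 on the plus strand and that of BCL2L1, at the start farthest upstream of its 2 entries, is chr20:31723994-31724213 on the minus strand. Capitals mark matches on either strand to the GC box GGGCGG or the CCAAT box CCAAT, of which BCL2L1 has none.
BCL2L11: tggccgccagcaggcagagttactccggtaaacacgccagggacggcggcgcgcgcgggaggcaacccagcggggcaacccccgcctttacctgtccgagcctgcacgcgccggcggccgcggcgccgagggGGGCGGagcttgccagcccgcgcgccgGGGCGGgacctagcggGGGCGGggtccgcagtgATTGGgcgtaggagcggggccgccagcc
BCL2L1: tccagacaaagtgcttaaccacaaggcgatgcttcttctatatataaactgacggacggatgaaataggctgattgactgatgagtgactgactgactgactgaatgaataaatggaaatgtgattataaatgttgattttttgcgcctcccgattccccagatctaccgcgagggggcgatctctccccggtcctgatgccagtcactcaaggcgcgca
In the 250 bases before the start, BCL2L11 had 3 GC boxes, beginning at -118, -91 and -75, and a CCAAT box at -58, while BCL2L1 had neither. Of all 35116 promoter entries, 42.6% hold a GC box and 32.0% a CCAAT box in the same window. G and C made up 76.8% of the BCL2L11 window and 50% of the BCL2L1 window, with a median of 58% over all entries. Neither held the AP-1 motif TGANTCA that FOS proteins bind (6.57% of entries), the interferon-stimulated response element (3.02%) or the gamma-activated site TTCNNNGAA (6.57%). Of the family, 9 of 10 members had an entry, 15 entries in all. MCL1 had none, so its promoter was not searched for any of these motifs. Among the entries searched, the AP-1 motif occurred in that of BBC3 alone, at -113. The motifs share no letters with each other at these matches, and a match is a stretch of letters only.

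**Figure D2:**
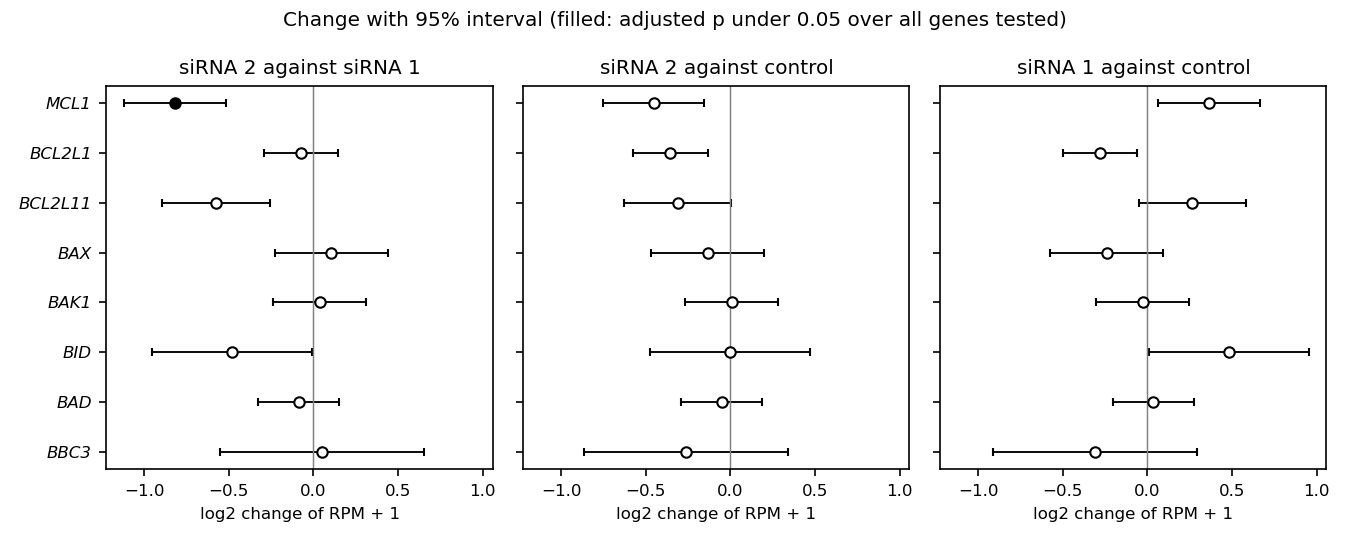
Log2 change of RPM + 1 (x axes) of the 8 tested genes (rows) in each comparison, with limma's 95% confidence interval as bars. Of these, MCL1 between siRNA 2 and siRNA 1 (-0.82) is the only filled point, with an adjusted p under 0.05. The intervals of BCL2L11 (-0.89 to -0.26) and BID (-0.96 to -0.011) in the same panel lie to the left of 0 as well.

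Among the other BH3-only genes, BID, whose protein links death receptors to the mitochondrion, was at 9.98, 6.69 and 4.77 RPM in replicates 1, 2 and 3 of siRNA 2. With siRNA 1 it was at 12.4, 8.91 and 9.06 RPM, and in control at 6.49, 6.44 and 7.79 RPM. All siRNA 1 libraries were above all control libraries, while those of siRNA 2 spread over both sides of control. Against control the change was 0.48 with siRNA 1 (interval 0.0083 to 0.95, limma adjusted p = 0.804) and -0.0027 with siRNA 2 (interval -0.47 to 0.47, adjusted p = 0.998). Between siRNA 2 and siRNA 1 it was -0.48 (interval -0.96 to -0.011, limma adjusted p = 0.318). This last change was -0.26 without siRNA 2 replicate 3 and -0.72 without siRNA 2 replicate 1. The sign with siRNA 2 against control turned under median-of-ratios (0.023) and TMM scaling (0.015), and also when control replicate 3 (0.076), or replicate 2 (0.014) or 3 (0.22) of siRNA 2, was left out.

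BAD, a BH3-only protein switched off by survival kinases downstream of receptors such as HER2, varied little. It was at 64.9, 65.4 and 69.2 RPM in replicates 1, 2 and 3 of siRNA 2, 62.1, 78.6 and 72.2 RPM in those of siRNA 1, and 63.4, 71.7 and 72.1 RPM in control. All 3 groups overlapped. The changes were -0.05 (interval -0.29 to 0.19) with siRNA 2 and 0.04 (interval -0.21 to 0.28) with siRNA 1, the last of which turned to -0.025 without control replicate 1 and to -0.041 without siRNA 1 replicate 2.

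BBC3 and PMAIP1, the genes of PUMA and NOXA, were near the floor. BBC3 had 7, 14 and 9 reads in replicates 1, 2 and 3 of siRNA 2, 16, 2 and 13 reads in those of siRNA 1, and 12, 14 and 16 reads in control. Its row carries 2 more gene identifiers, so that reads of overlapping genes cannot be told apart from those of BBC3. PMAIP1 had 3 reads in each siRNA 2 library, 9, 1 and 6 reads with siRNA 1 and 2, 6 and 3 reads in control. For both genes siRNA 1 replicate 2 was the lowest of the 9 libraries. The change of BBC3 was -0.26 (interval -0.87 to 0.34) with siRNA 2 and -0.31 (interval -0.91 to 0.29) with siRNA 1, the last of which turned to 0.019 without siRNA 1 replicate 2. Between siRNA 2 and siRNA 1 the change was 0.049, which turned to -0.28 without siRNA 1 replicate 2 and to -0.087 without siRNA 2 replicate 2.

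The pore-former BAX was at 24.4, 22.9 and 17.8 RPM in replicates 1, 2 and 3 of siRNA 2, 21.9, 19.7 and 18.3 RPM in those of siRNA 1, and 27.2, 24.5 and 19.9 RPM in control. In every group the library numbered 1 was the highest and the one numbered 3 the lowest, an order that BAX alone of the 10 genes kept in all groups. Within pairs, BAX was lower than control in 3 of 3 pairs with siRNA 2 (-0.15, -0.10 and -0.15) and in 3 of 3 with siRNA 1 (-0.30, -0.31 and -0.12). These differences did not pass the threshold, with the replicate block (limma adjusted p = 0.606 and 0.453) or without it (0.870 with siRNA 2; for siRNA 1 the unadjusted p was 0.146).

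BAK1, the other pore-former, was at 69.3, 66.6 and 57.1 RPM in replicates 1, 2 and 3 of siRNA 2, 67.9, 57.9 and 62.1 RPM in those of siRNA 1, and 73.5, 64.8 and 54.3 RPM in control. Group means of 64.3, 62.6 and 64.2 RPM lay closer together than the libraries of any group. The changes were 0.0089 (interval -0.27 to 0.28) with siRNA 2 and -0.03 (interval -0.30 to 0.25) with siRNA 1. With siRNA 2 the sign turned to -0.10 without control replicate 3, to -0.046 without siRNA 2 replicate 1 and to -0.018 without siRNA 2 replicate 2, and with siRNA 1 it turned without control replicate 1 (0.074) or siRNA 1 replicate 2 (0.027). The change of 0.036 between siRNA 2 and siRNA 1 turned without siRNA 2 replicate 1 (-0.019) or siRNA 1 replicate 2 (-0.018).

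**Figure D3:**
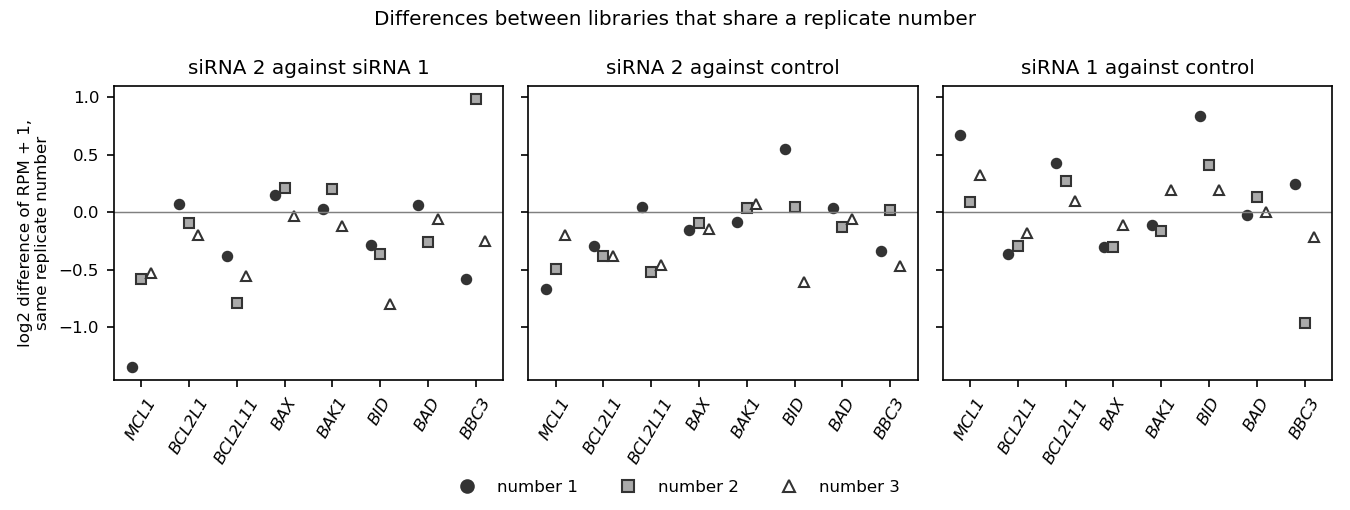
Log2 difference of RPM + 1 (y axis) between libraries of the same replicate number for the 8 tested genes (x axes), with 1 panel per comparison and the number as the symbol. MCL1, BCL2L11 and BID lie below 0 in 3 of 3 pairs between siRNA 2 and siRNA 1, and BCL2L1 and BAX lie below 0 in 3 of 3 pairs in each comparison with control. The share of all tested genes with such agreement was not computed.

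Counted over the family, limma called 1 of the 8 tested members between siRNA 2 and siRNA 1, MCL1, which was lower, while 2.46% of all tested genes were called lower and 0.592% higher there. With the replicate block MCL1 and BCL2L11 were called, both lower (6.52% of all tested genes lower, 2.81% higher). At an unadjusted p under 0.05 there were 3 lower, MCL1, BCL2L11 and BID, and 0 higher (10.1% of tested genes lower, 5.05% higher). Groups did not overlap for MCL1 and BCL2L11, both lower, where 12.6% of tested genes were lower and 7.04% higher without overlap. The median change of the 8 was -0.08, beside -0.04 over all tested genes.

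Between siRNA 2 and control limma called 0 of the 8 (0 by edgeR and DESeq2), where 0.645% of all tested genes were called lower and 0.0358% higher. With the block BCL2L1 was called lower (2.95% of tested genes lower, 0.457% higher). At an unadjusted p under 0.05 there were 2, MCL1 and BCL2L1, both lower (6.93% of tested genes lower, 2.49% higher). The same 2 genes were those without overlap (8.95% of tested genes lower, 4.99% higher). The median change was -0.20, beside -0.02 over all tested genes.

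Between siRNA 1 and control limma called 0 of the 8 (0 by edgeR and DESeq2), where 0.636% of all tested genes were called higher and 0.215% lower. With the block the count was 0 as well (1.17% of tested genes higher, 0.681% lower). At an unadjusted p under 0.05 there were 2 higher, MCL1 and BID, and 1 lower, BCL2L1 (3.26% of tested genes higher, 2.78% lower). Groups did not overlap for 3 that were higher, MCL1, BCL2L11 and BID (6.4% of tested genes), and for 1 that was lower, BCL2L1 (5.59%). The median change was 0.0038, beside 0.01 over all tested genes.

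Of 15 other genes of the BCL2 family or of its binding partners (among them BNIP2 and MOAP1), 9 passed the filter. Of these, limma called 0 in any comparison (0 by edgeR and DESeq2). At an unadjusted p under 0.05 there were 2 lower in each comparison and 0 higher, where 10.1% of all tested genes were lower between the siRNAs, 6.93% with siRNA 2 against control and 2.78% with siRNA 1 against control. With siRNA 2 the lowest p were those of BIK and BMF, both BH3-only genes. BIK was at 7.69, 6.20 and 2.77 RPM in replicates 1, 2 and 3 of siRNA 2, 6.38, 8.04 and 9.99 RPM in those of siRNA 1 and 9.64, 9.10 and 9.07 RPM in control (-0.73 with siRNA 2 against control, limma adjusted p = 0.339). BMF, whose protein is released from the cytoskeleton under stress, was at 5.99, 5.72 and 9.44 RPM with siRNA 2, 6.47, 5.91 and 11.4 RPM with siRNA 1 and 13.3, 9.57 and 11.6 RPM in control. Its change was -0.65 with siRNA 2 (limma adjusted p = 0.351; with the replicate block 0.0451 by limma and 0.0656 by edgeR) and -0.52 with siRNA 1 (0.795; 0.182 with the block). With the block in limma 2.95% of all tested genes were called lower with siRNA 2 against control. All siRNA 2 libraries were below all control libraries for both genes, while siRNA 1 replicate 3 lay inside the control range for BMF and above it for BIK.

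BNIP2 was at -0.25 with siRNA 1 against control (limma adjusted p = 0.787). Between siRNA 2 and siRNA 1 BCL2L13, a mitochondrial family member, was at -0.43 (limma adjusted p = 0.145) and MOAP1, an activator of BAX, at -0.36 (0.253). With the block in limma BCL2L13 was called lower (adjusted p = 0.0411; 0.0595 with the block in edgeR) and BNIP3, a gene of hypoxia and mitophagy named for this call, higher (0.31, adjusted p = 0.0218; 0.0173 with the block in edgeR). That limma fit called 6.52% of all tested genes lower and 2.81% higher between the siRNAs. The other 6 genes were below the filter, and among them BCL2L10, BCL2L14 and HRK were listed at 0 in all 9 libraries.

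No outer membrane or apoptosome gene among those listed was called. Of 13 genes of the outer membrane and the apoptosome 12 were tested, and limma called 0 in any comparison (0 by edgeR, DESeq2 and the block; 0 at an unadjusted p under 0.05), with changes between -0.19 and 0.19. Over all tested genes limma called 2.46% lower and 0.592% higher between the siRNAs. The shares lower and higher were 0.645% and 0.0358% with siRNA 2 against control, and 0.215% and 0.636% with siRNA 1. At an unadjusted p under 0.05 they were 10.1% and 5.05%, 6.93% and 2.49%, and 2.78% and 3.26% in the same order. VDAC2, a channel protein that holds BAK1 and BAX at the membrane, averaged 869 ± 29.7 RPM with siRNA 2, 763 ± 17.7 RPM with siRNA 1 and 768 ± 95.5 RPM in control (SD, n = 3 each; 0.19 between siRNA 2 and control, limma adjusted p = 0.624, and 0.19 between the siRNAs, 0.414). CYCS, the gene of cytochrome c, averaged 401 ± 44.0, 427 ± 42.1 and 401 ± 21.4 RPM in the same order. The protease gene HTRA2 was at -0.18 with siRNA 2 against control and at -0.19 between the siRNAs (adjusted p = 0.673 and 0.438), and AIFM1, a flavoprotein gene, at -0.14 with siRNA 1 against control. VDAC2 was higher with siRNA 2 without overlap against control (4.99% of all tested genes) and between the siRNAs (7.04%). HTRA2 was lower without overlap between the siRNAs (12.6% of all tested genes).

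Genes that control the turnover of MCL1 protein were read as well. Of 9 listed, 8 were tested, and limma called 0 in any comparison (at an unadjusted p under 0.05, 1 higher with siRNA 2 against control, where 2.49% of all tested genes were higher, and 1 in each direction in the other comparisons, where 5.05% were higher and 10.1% lower between the siRNAs and 3.26% higher and 2.78% lower with siRNA 1). USP13, a deubiquitinase gene, was at 63.6, 55.1 and 52.6 RPM in replicates 1, 2 and 3 of siRNA 2, 38.4, 47.3 and 40.6 RPM in those of siRNA 1 and 54.7, 54.7 and 49.97 RPM in control. All siRNA 1 libraries were below all others. Between siRNA 2 and siRNA 1 its change was 0.43 (interval 0.18 to 0.69), opposite in sign to that of MCL1 (limma adjusted p = 0.0680; 0.0138 with the block, 0.0366 by edgeR and 0.00687 by DESeq2). MARCH5, a mitochondrial ubiquitin ligase gene, was at -0.43 in the same comparison (0.137; with the block 0.0360 by limma and 0.0552 by edgeR; 0.175 by edgeR and 0.168 by DESeq2 without it). Beside these 2 genes, the block in limma called 2.81% of all tested genes higher and 6.52% lower there.

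GSK3A, a kinase gene whose protein marks MCL1 for degradation, differed among libraries of the same group. It was at 117, 158 and 83.9 RPM in replicates 1, 2 and 3 of siRNA 2, 82.8, 82.3 and 153 RPM in those of siRNA 1 and 68.9, 71.1 and 75.2 RPM in control. All 6 PVRL4 siRNA libraries were above control, with 3 of them far above the rest, and the changes of 0.68 with siRNA 2 and 0.50 with siRNA 1 did not pass (limma adjusted p = 0.299 and 0.814). The change with siRNA 1 was 0.20 without siRNA 1 replicate 3.

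**Figure D4:**
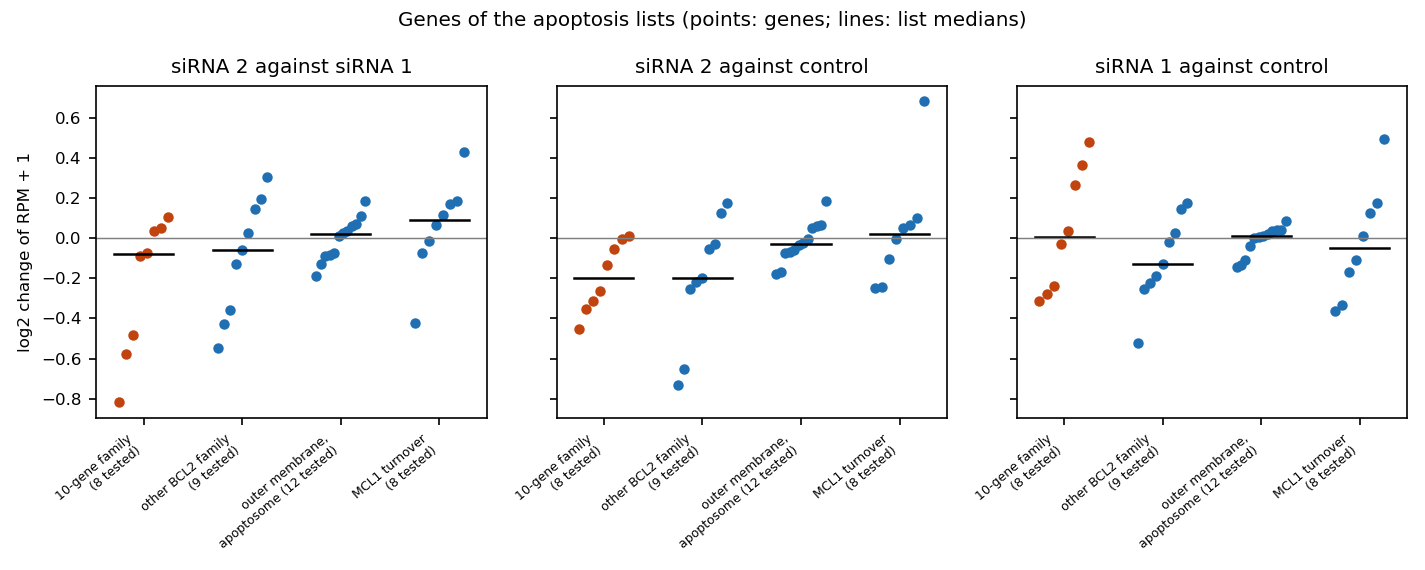
Log2 change of RPM + 1 (y axis) of the tested genes of 4 lists (x axes) in each comparison, with a point per gene and the list median as a line. The outer membrane and apoptosome genes lie between -0.19 and 0.19, and the farthest point of the 10-gene family is MCL1 at -0.82 between siRNA 2 and siRNA 1.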

How the data were processed

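RNA of 9 SKBR3 libraries was read by amplicon sequencing. Per the labels' protocols, an Ion AmpliSeq transcriptome kit was used on 100 ng of total RNA per library, which reads 1 short amplicon per gene, so each gene rests on that amplicon and a transcript form without it is not seen. A single table of RPM values was deposited by the authors. Its reads refer to hg19 per the submitters' processing notes, while how they were aligned and counted was not given in the sources used here. RPM is relative to the library total and removes differences in total RNA per cell.

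Whole reads were recovered from the RPM steps. In every library 100% of values were whole within a tolerance of 0.1 read. In siRNA 2 replicate 1 the step lies too near a power of 10 for low values to show this alone, and all its values together fitted. Libraries of 1 group differed by more than counting noise (a chi-square of 8.90 to 23.9 per degree of freedom), so none was treated as a copy of another.

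limma 3.58.1 in R 4.3.3 (trended prior variance, two-sided) was run on log2(RPM + 1) for the 11158 genes that averaged 1 RPM or more, with the 3 groups in 1 fit. Fold changes on this scale understate those of genes near 1 RPM. edgeR 4.0.16 (quasi-likelihood) and DESeq2 1.42.0 were run on the recovered reads as alternatives and called 108 and 161 genes with siRNA 1, 58 and 159 with siRNA 2 and 344 and 524 between the siRNAs. Without the block, all were tested on simulated data with the same spread setting for every gene and no replicate effect. That simulation covers neither the block nor differences in spread between genes. Other alternatives were a pseudocount of 0.1 or 5, a filter at 5 RPM or none, scaling by median-of-ratios or TMM, limma without a trend, the replicate block and each library left out. edgeR with the block was added after the data were seen.

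The replicate numbers of the titles pair the samples: once group means were removed, the 9 pairs of libraries with a number in common had correlations of 0.252 to 0.417, and the 18 others of -0.340 to -0.0275. Removing group means ties these sets to each other, so the negative values are not separate evidence of pairing.

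The members and lists were chosen with earlier results of these data known. PVRL4 and all 10 members are named; of each pathway list, the members past the threshold or else the 2 with the smallest p in a comparison; and the 5 genes most like MCL1. Python 3.11.15 was used for summaries.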

Additional observations from a re-analysis of the deposited data

Results flagged for a closer look

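MCL1 differed between the 2 PVRL4 siRNAs by a test of the difference itself. Neither siRNA changed MCL1 past the threshold against control (limma adjusted p = 0.225 with siRNA 2 and 0.556 with siRNA 1). MCL1 changed by -0.82 between siRNA 2 and siRNA 1 on the log2(RPM + 1) scale (limma adjusted p = 0.00556, lower in 3 of 3 pairs of libraries that share a number), with 96.0 ± 11.6 RPM with siRNA 2 and 171.5 ± 35 RPM with siRNA 1 (SD, n = 3 each). Without siRNA 1 replicate 1, the library with the most MCL1, the change was -0.66 (limma adjusted p = 0.0200). Groups of 3 libraries are too small for a test of single outlying libraries.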

How the results depend on the processing

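MCL1 between siRNA 2 and siRNA 1 was called in all 20 alternatives. The count of family members called between siRNA 2 and siRNA 1 was 1, and 2 at a pseudocount of 0.1, with the filter at 5 RPM, with TMM scaling, by DESeq2, with the replicate block in limma or in edgeR; it was 1 to 2 with 1 library left out. Between siRNA 2 and control it was 0, and 1 with the replicate block in limma or in edgeR. The block changed no other call of a member. Over all genes, 95 were called with siRNA 1 against control (57 with no filter, 206 with the replicate block, 219 with the block in edgeR, 49 without a trend, 161 by DESeq2, and 46 to 137 with 1 library left out). With siRNA 2 against control 76 were called (29, 380, 320, 17, 159 and 18 to 70 in that order), and between the siRNAs 340 (197, 1041, 1015, 192, 524 and 155 to 309). The change of BID with siRNA 2 (-0.0027) turned positive at a pseudocount of 5 (0.0084), with median-of-ratios (0.023) and TMM (0.015) scaling, by edgeR (0.067, and 0.043 with the block) and by DESeq2 (0.068), and ranged from -0.24 to 0.22 with 1 library left out. Other signs turned only with 1 library left out: BAK1 (-0.14 to 0.074), BAD (-0.041 to 0.13) and BBC3 (-0.53 to 0.019) with siRNA 1; BAK1 (-0.10 to 0.11) with siRNA 2; and BCL2L1 (-0.12 to 0.0038), BAK1 (-0.019 to 0.12) and BBC3 (-0.28 to 0.26) between the siRNAs. The cause was not tested. No filter adds genes near the floor, and leaving out a library removes samples. Depth limits BCL2, PMAIP1 and BBC3, with at most 16 reads per library.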
